A study of Xenopus laevis with 8 samples.

Results

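The secreted BMP antagonists and the BMP-type ligand Admp were followed in *Xenopus laevis* embryos that lacked maternal and zygotic *wnt11b*. They were taken as every entry of the deposited count table whose name, without its final .L or .S, is *chrd*, *chrd.1*, *nog*, *fst*, *fstl1*, *admp* or *grem1*. This gave 9 of the 49085 genes listed, namely *chrd.L*, *nog.L*, *nog.S*, *fst.L*, *fst.S*, *fstl1.L*, *grem1.L*, *admp.L* and *admp.S*. No measured value enters this rule, although the names were chosen with earlier results of these data known. *X. laevis* is allotetraploid, and .L and .S mark the copies of a gene, called homeologs, on the long and short chromosomes of a pair.

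BMPs are secreted growth factors that promote ventral and epidermal fates, and the dorsal organiser of the gastrula antagonises them outside the cell. Chordin, noggin and follistatin are organiser proteins that bind BMPs or related ligands and keep them from their receptors, and gremlin belongs to another family of secreted BMP antagonists. Admp is a BMP-like ligand that is itself made in the organiser and opposes dorsal fates, so that it is expressed beside its own antagonists.

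Whole embryos were sequenced at stage 10.5, during gastrulation, and at stage 9, in the late blastula. The M/Z (Maternal-Zygotic) *wnt11b* mutant embryos came from eggs of mutant females, and the +/Z embryos (maternal wild type, heterozygous) came from eggs of wild-type J-strain females. Mutant sperm was used for both, so that every embryo carried a mutant allele, and the mother and the genotype differed together. The allele is a small frameshift deletion in the first exon of *wnt11b.L* that was passed on by 1 founder female. Each of the 4 groups, M/Z stage 10.5, +/Z stage 10.5, M/Z stage 9 and +/Z stage 9, had 2 libraries, each from a pool of 3 embryos. Because the females behind each pool were not named, p-values measure the spread between pools only.

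Library totals lay between 24697029 and 37243280 counts. A detection floor of 3 counts corresponded to 0.0716 to 0.136 CPM, that is, counts scaled to a common library size after normalisation by the trimmed mean of M-values (TMM). *wnt11b.L* itself had 55.3 and 40.3 CPM in M/Z pools at stage 10.5, against 72.0 and 60.5 CPM in +/Z pools, and at stage 9 the groups overlapped. Neither difference passed, at -0.47 (stage 10.5) and -0.052 (stage 9) on the log2 scale (adjusted p = 0.20 and 0.92, *edgeR* quasi-likelihood test), and a small deletion is not visible in counts per gene. M/Z replicate 2 at stage 10.5 stood apart along the first principal component of all genes, which held 54.6% of the variance. It scored 41.4, against 107 for M/Z replicate 1 and 146 and 138 for +/Z pools at stage 10.5, and stage 9 libraries scored between -120 and -89.7. The paper describes variability between its replicate samples, which it relates to the variable phenotype, and cites M/Z replicates 1 and 2 as an example. Results for the members and calls of the pathway lists at stage 10.5 are given with and without M/Z replicate 2. Fits without it used the other 7 libraries, in which the low-count filter passed 26796 genes. Such a fit keeps a lone M/Z pool at stage 10.5, so the spread between these 2 pools does not enter its tests at either stage. A call gained in it is therefore no further support.

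Most of the BMP antagonists and both copies of *admp* were lower in M/Z pools than in +/Z pools, and *grem1.L* was higher. Of the 9 genes, 8 had enough counts to be tested, and *fstl1.L* did not. At stage 10.5, 3 of the 8 passed an adjusted p of 0.05, 2 lower (*nog.L* and *nog.S*) and 1 higher (*grem1.L*), where 13.1% of the 25447 genes tested passed in either direction, 6.39% lower and 6.68% higher. *DESeq2* called 5 of the 8 at this stage, 4 of them lower. Shares of all genes, here and in the paragraphs that follow, are those of *edgeR*. Counts of *DESeq2* calls therefore have no matching share beside them. At stage 9, 1 of the 8 passed, *grem1.L*, which was higher, where 11.9% of all genes passed, 5.92% lower and 6.01% higher. No lower member passed at stage 9 in the fit of all 8 libraries with *edgeR* or with *DESeq2*. An unadjusted p under 0.05 was reached by 3 of the 8, *nog.S* and *admp.S* (lower) and *grem1.L* (higher). The same held for 6634 of all 25447 genes tested, in either direction. In the 4 libraries of stage 9 alone *chrd.L*, *nog.S*, *admp.L* and *admp.S* passed as lower, and without the filter on low counts *chrd.L*, *admp.L* and *admp.S* did. Where stage was compared in M/Z pools, the standard errors of *chrd.L*, *admp.L* and *admp.S* were much smaller without that filter. For *chrd.L* the standard error was 0.23 in place of 0.74. Calls gained without the filter are therefore no further support. Over all genes, fits of 4 libraries passed more than the fit of all 8 at stage 9 and fewer at stage 10.5, as given in the closing section. Without M/Z replicate 2 of stage 10.5, 5 members passed at stage 10.5 (*nog.L*, *chrd.L*, *admp.L* and *admp.S* lower and *grem1.L* higher) and 4 at stage 9 (*chrd.L*, *admp.L* and *admp.S* lower and *grem1.L* higher). Over all genes, 5.67% passed at stage 10.5 and 14% at stage 9 in that fit. There, as in the fit without M/Z replicate 1, the spread between the 2 mutant pools of stage 10.5 is absent. Calls gained in these fits are therefore no further support.

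Averaged over both stages, 6 of the 8 passed, 5 lower (*nog.L*, *nog.S*, *chrd.L*, *admp.L* and *admp.S*) and 1 higher (*grem1.L*), where 24% of all genes passed, 12% lower and 12% higher. Without M/Z replicate 2 of stage 10.5 the differences of these 6 kept their direction. The median log2 fold change of the 8 was -1.91 at stage 10.5 and -1.15 at stage 9, against 0.020 and 0.00 over all genes tested. Scaling by library totals in place of TMM moved the median of all genes up by 0.19 at stage 10.5, and the share of calls that were higher was then 70.5% in place of 51.1%. Averaged over both stages this share was 66.4% in place of 50.0%. No genotype difference of a member changed sign under this scaling. In pools of whole embryos, fewer cells of a type and less RNA per cell cannot be told apart. The paper describes a consistent delay of gastrulation in embryos from mutant females. The part that such a delay played in the differences between genotypes was not tested.

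**Figure D1:**
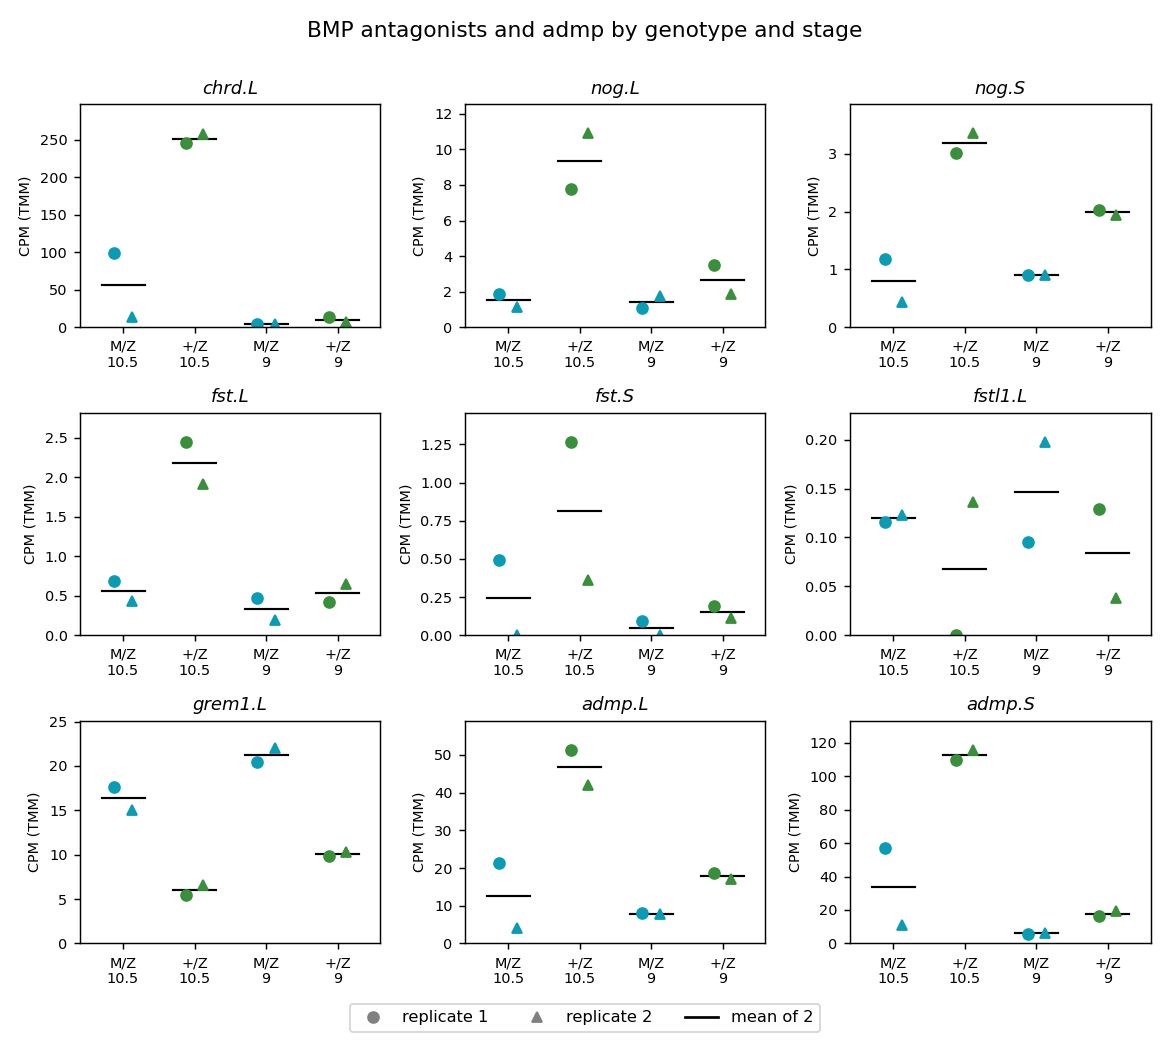
CPM (TMM-normalised) of the 9 genes in each library, with M/Z left of +/Z, first for stage 10.5 and then for stage 9, along the horizontal axis. Circles are replicate 1, triangles replicate 2 and lines the mean of 2, each panel has its own axis from 0, and *grem1.L* is the panel in which both M/Z groups lie above their +/Z groups without overlap.

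Chordin is the main organiser antagonist that binds BMPs directly. At stage 10.5, *chrd.L* had 98.9 and 13.4 CPM in M/Z pools, against 245 and 258 CPM in +/Z pools. Both mutant pools were below both controls, and the mutant pools differed from each other by 7.40-fold. The log2 fold change was -2.16 ± 0.68 (SE), or 4.48-fold lower, which did not pass (adjusted p = 0.063). At stage 9, *chrd.L* had 4.8 and 4.17 CPM in M/Z pools, against 13.3 and 7.11 CPM in +/Z pools. The groups did not overlap, with a log2 fold change of -1.19 ± 0.70 (adjusted p = 0.32), which passed in the 4 libraries of stage 9 alone (adjusted p = 0.0020). Averaged over both stages, *chrd.L* fell, with a log2 fold change of -1.68 ± 0.49 (adjusted p = 0.032).

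The size of the fall of *chrd.L* depended on the 2 mutant pools at stage 10.5. Without M/Z replicate 2 at stage 10.5, its log2 fold change at that stage was -1.33, and without M/Z replicate 1 it was -4.23. At stage 9, whose libraries were unchanged, it stayed at -1.18 and -1.19 in these fits. The gap between the 2 mutant pools no longer enters the shared estimate of the spread there. Calls of *chrd.L* gained in these fits, at either stage, are therefore no further support. When the stages were averaged its log2 fold change was -1.26 without M/Z replicate 2 and -2.71 without M/Z replicate 1. The average over both stages lost its call without M/Z stage 9 replicate 1 or 2, +/Z stage 9 replicate 1 or +/Z stage 10.5 replicate 2 (adjusted p between 0.053 and 0.12).

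A pair of further chordin entries of the table, outside the chosen names, were read after the values of *chrd.L* had been seen. They are *chrd.2.L* and LOC108716939, which RefSeq (assembly version 10.1) names *chrd.1.L* and places next to *chrd.2.L* with 0 genes between them. RefSeq gives *chrd.L* as an older name of *chrd.1.S*, so it remains unsettled which subgenome the row *chrd.L* stands for. At stage 10.5, *chrd.2.L* had 43.0 and 1.97 CPM in M/Z pools, against 127 and 124 CPM in +/Z pools. LOC108716939 had 29.2 and 1.02 CPM in M/Z pools, against 137 and 120 CPM in +/Z pools. All 3 chordin entries were thus lowest in M/Z replicate 2 at this stage, and its values were 21.8-fold and 28.7-fold below M/Z replicate 1 for these 2. In the *edgeR* fit *chrd.2.L* did not pass at stage 10.5, at stage 9 or averaged over both (adjusted p = 0.10, 0.43 and 0.063). LOC108716939 did not pass at stage 10.5 or stage 9 (adjusted p = 0.065 and 0.51), and it passed when averaged (adjusted p = 0.048). The summed counts of the 3 entries gave -2.43 on the log2 scale at stage 10.5 (adjusted p = 0.064) and -1.81 averaged over both stages (adjusted p = 0.035). The sum without M/Z replicate 2 of stage 10.5 gave -1.55 at stage 10.5 and -1.36 averaged. Summing was an alternative chosen after the data were seen.

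Noggin fell at stage 10.5 in both of its copies. *nog.L* had 1.88 and 1.14 CPM (65 and 37 counts) in M/Z pools at stage 10.5, against 7.77 and 10.9 CPM (203 and 240 counts) in +/Z pools. The 2 mutant pools lay close together, well below both controls. *nog.L* fell by 2.62 on the log2 scale (SE 0.44, 95% confidence interval -3.61 to -1.64), or 6.16-fold, with an adjusted p of 0.0051. The call held when each of the 8 libraries was left out in turn, at -3.02 to -2.30 on the log2 scale and adjusted p between 0.0051 and 0.031. At stage 9, *nog.L* had 1.07 and 1.75 CPM in M/Z pools, against 3.48 and 1.87 CPM in +/Z pools. The groups were separated by a small margin, and the log2 fold change of -0.93 ± 0.43 did not pass (adjusted p = 0.21).

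*nog.S* was measured with fewer counts, 41 and 14 in M/Z pools and 79 and 74 in +/Z pools at stage 10.5. These were 1.18 and 0.432 CPM in M/Z pools, against 3.02 and 3.36 CPM in +/Z pools. The groups did not overlap, and *nog.S* fell by 1.97 on the log2 scale (SE 0.49, adjusted p = 0.028). The call was lost without M/Z replicate 2 at stage 10.5 (log2 fold change -1.42, adjusted p = 0.12), without +/Z replicate 2 at stage 10.5 (-1.89, adjusted p = 0.076) and without any 1 of the 4 stage 9 libraries (-1.97 to -1.96, adjusted p between 0.053 and 0.054). At stage 9, *nog.S* had 0.907 and 0.901 CPM in M/Z pools, against 2.03 and 1.95 CPM in +/Z pools. The replicates of each genotype were nearly equal there, and the log2 fold change was -1.14 ± 0.48 (adjusted p = 0.16), which passed in the 4 libraries of stage 9 alone (-1.13, adjusted p = 0.031). With the counts of both homeologs summed, noggin gave -2.43 on the log2 scale at stage 10.5 (adjusted p = 0.0038) and -1.02 at stage 9 (adjusted p = 0.12). Averaged over both stages, *nog.L* fell by 1.78 on the log2 scale (adjusted p = 0.0028) and *nog.S* fell by 1.55 (adjusted p = 0.0093). Without M/Z replicate 2 of stage 10.5 these averages were -1.62 and -1.27.

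Follistatin binds activins as well as BMPs. *fst.L* had 0.693 and 0.432 CPM (24 and 14 counts) in M/Z pools at stage 10.5, against 2.45 and 1.91 CPM (64 and 42 counts) in +/Z pools. Both mutant pools were below both controls, and the log2 fold change of -1.94 ± 0.58 lay just outside the threshold (adjusted p = 0.054), whereas it passed with *DESeq2* (-1.97, adjusted p = 0.037). With each library left out in turn it lay between -2.32 and -1.64, the latter without M/Z replicate 2 of stage 10.5. Averaged over both stages, *fst.L* gave -1.29 ± 0.42 in the *edgeR* fit and did not pass (adjusted p = 0.052). At stage 9, *fst.L* had 0.477 and 0.197 CPM in M/Z pools, against 0.419 and 0.650 CPM in +/Z pools. Here the groups overlapped, with 7 to 20 counts in each library, and the log2 fold change was -0.63 ± 0.62 (adjusted p = 0.57).

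*fst.S* was at the limit of detection. It had 17 and 0 counts in M/Z pools at stage 10.5, against 33 and 8 counts in +/Z pools, and 4 and 0 counts in M/Z pools at stage 9, against 6 and 3 counts in +/Z pools. At stage 10.5 the groups overlapped, and at stage 9 all 4 libraries lay near the floor. It passed none of the genotype tests (adjusted p = 0.40 at stage 10.5 and 0.60 at stage 9). *fstl1.L*, a follistatin-like gene, had 4 and 4 counts in M/Z pools at stage 10.5, against 0 and 3 counts in +/Z pools. At stage 9 its counts were 4 and 7 in M/Z pools, against 4 and 1 in +/Z pools. It was not tested, and these values show no more than a level near the floor in every group.

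*grem1.L* went the other way from the other antagonists. It had 17.6 and 15.1 CPM (610 and 489 counts) in M/Z pools at stage 10.5, against 5.43 and 6.59 CPM (142 and 145 counts) in +/Z pools. At stage 9 it had 20.4 and 22.0 CPM (855 and 781 counts) in M/Z pools, against 9.91 and 10.3 CPM (307 and 269 counts) in +/Z pools. At both stages every mutant pool was above every control, and the replicates of a group were close to each other. *grem1.L* rose by 1.44 ± 0.23 on the log2 scale at stage 10.5, or 2.72-fold (95% confidence interval 0.94 to 1.95 on the log2 scale, adjusted p = 0.0037). It rose by 1.07 ± 0.22 at stage 9, or 2.1-fold (95% confidence interval 0.58 to 1.56, adjusted p = 0.012). At stage 10.5 the call held without any 1 of the 8 libraries (log2 fold change 1.32 to 1.59). At stage 9 it was lost without any 1 of the 4 libraries of that stage (1.02 to 1.13, adjusted p between 0.082 and 0.11).

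*admp.L* and *admp.S* encode the ligand of the set. *admp.L* had 21.3 and 4.1 CPM in M/Z pools at stage 10.5, against 51.4 and 42.1 CPM in +/Z pools. *admp.S* had 57.2 and 10.8 CPM in M/Z pools at stage 10.5, against 110 and 116 CPM in +/Z pools. As with *chrd.L*, both mutant pools were below the controls, and M/Z replicate 2 was far below M/Z replicate 1, by 5.18-fold for *admp.L* and 5.29-fold for *admp.S*. The log2 fold changes of -1.88 ± 0.55 for *admp.L* and -1.73 ± 0.55 for *admp.S* did not pass (adjusted p = 0.052 and 0.068). Without M/Z replicate 2 of stage 10.5 they were -1.13 and -0.97, and without M/Z replicate 1 of stage 10.5 they were -3.50 and -3.38. The size of the fall thus depended on the pool kept. With a lone mutant pool the spread between the 2 does not enter the test, so calls of these fits are no further support.

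At stage 9, *admp.L* had 7.97 and 7.86 CPM in M/Z pools, against 18.6 and 17 CPM in +/Z pools. *admp.S* had 5.61 and 6.28 CPM in M/Z pools, against 16.4 and 19.2 CPM in +/Z pools. The replicates differed little here and the groups were well separated, but the fit, which shares 1 estimate of the spread over the 4 groups, gave adjusted p of 0.21 (log2 fold change -1.17 ± 0.55) and 0.11 (-1.58 ± 0.57). Fitted on the 4 stage 9 libraries alone, both passed at the same size (-1.17 for *admp.L*, adjusted p = 0.00012, and -1.58 for *admp.S*, adjusted p = 6.2e-06). Averaged over both stages, *admp.L* fell by 1.53 ± 0.39 on the log2 scale (adjusted p = 0.019) and *admp.S* fell by 1.66 ± 0.40 (adjusted p = 0.014). These averages without M/Z replicate 2 of stage 10.5 were -1.15 and -1.27, and without M/Z replicate 1 they were -2.34 and -2.48. The averaged call of *admp.L* was lost without M/Z stage 9 replicate 1 or 2 or +/Z stage 9 replicate 1 (adjusted p between 0.060 and 0.063), and that of *admp.S* without M/Z stage 9 replicate 1 (adjusted p = 0.054).

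**Figure D2:**
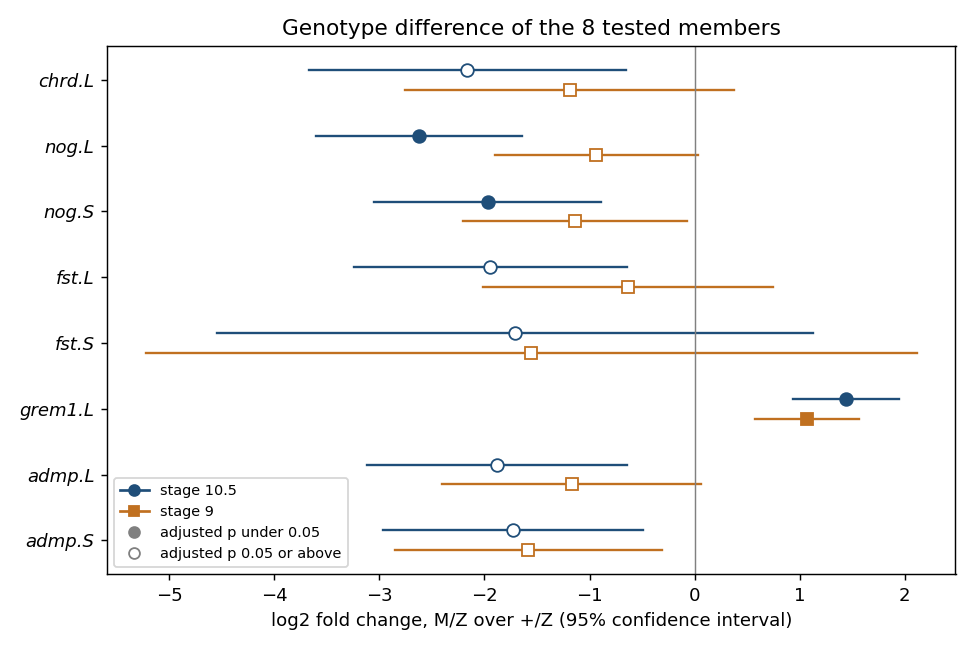
Log2 fold change of M/Z over +/Z embryos for the 8 tested genes, with bars for the 95% confidence interval of the *edgeR* fit, circles for stage 10.5 and squares for stage 9. Filled symbols have an adjusted p under 0.05, which *nog.L*, *nog.S* and *grem1.L* reached at stage 10.5 and *grem1.L* at stage 9.

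At stage 10.5, 6 of the 8 genes had both mutant pools below both controls and 1 had both above, where 27.1% of all genes tested were separated downwards and 26.7% upwards. At stage 9, 6 of the 8 were separated downwards and 1 upwards, where 31.8% of all genes were separated in each direction. *fst.S* counts among the 6 at stage 9 by its CPM, although its raw counts there overlapped and lay near the floor. The gene without separation was *fst.S* at stage 10.5 and *fst.L* at stage 9.

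The mutant pools at stage 10.5 fell into different positions for different genes. As a percentage of the mean of the +/Z pools, *chrd.L* stood at 39.3% in M/Z replicate 1 and 5.31% in M/Z replicate 2. *admp.L* stood at 45.5% and 8.78%, and *admp.S* at 50.8% and 9.59%. *nog.L* was at 20.1% and 12.2%, and *fst.L* at 31.8% and 19.8%, so that for these genes the 2 pools were much nearer to each other. *nog.S* lay between, at 37.1% and 13.5%. *grem1.L* was at 293% and 251%. M/Z replicate 2 was thus the lower of the pools for all 8 tested genes.

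Organiser markers, taken as a sum, were also lower in M/Z pools at stage 10.5. The summed level of 18 listed organiser entries (*gsc*, *lhx1*, *otx2*, *foxa4*, *not*, *noto*, *sia1*, *sia2*, *hhex*, *frzb*, *frzb2* and *cer1*, by symbol) was 1068 and 518 CPM in M/Z pools at stage 10.5, against 1831 and 1884 CPM in +/Z pools. This was 57.5% and 27.9% of the mean of +/Z pools, and again M/Z replicate 2 was the lower pool. At stage 9 the sum was 124 and 143 CPM in M/Z pools, against 174 and 143 CPM in +/Z pools, and the groups overlapped. Between 0 and 2 of the 18 entries were at 0 counts in a library. Of the 18 tested, 7 fell and 0 rose at stage 10.5, and 3 fell and 0 rose at stage 9, where 6.39% and 5.92% of all genes tested fell. With M/Z replicate 2 of stage 10.5 left out, 2 of them fell and 0 rose at stage 10.5, and 3 fell and 2 rose at stage 9. *DESeq2* called 10 and 3 of them lower and 0 higher, and with all 8 libraries no entry was higher at an unadjusted p under 0.05. *foxa4.S*, a forkhead factor of the dorsal midline, fell at both stages, by 0.96 ± 0.23 on the log2 scale at stage 10.5 and by 1.38 ± 0.24 at stage 9 (adjusted p = 0.023 and 0.0056), and at stage 10.5 its call was lost without M/Z replicate 2 (-0.73, adjusted p = 0.13). The summed level of 16 ventral and lateral entries was 2472 and 1724 CPM in M/Z pools at stage 10.5, against 1806 and 1927 CPM in +/Z pools. The groups overlapped, and 2 of the 16 rose and 0 fell, with 0 lower at an unadjusted p under 0.05 or by *DESeq2*. At stage 9 the ventral and lateral sum was 270 and 353 CPM in M/Z pools, against 393 and 337 CPM in +/Z pools. Of the 16, 2 fell and 0 rose at stage 9. By an unadjusted p under 0.05, 7 were lower and 1 higher there, and *DESeq2* called 3 lower and 0 higher. Of the 18 organiser entries, 4 were lower at stage 9 by that unadjusted p. Among all 25447 genes tested, 6634 had one in either direction. At stage 10.5 the sum of 14 endoderm entries was 1338 and 839 CPM in M/Z pools, against 1825 and 1728 CPM in +/Z pools. Of the 14, 5 fell and 0 rose, with 0 higher at an unadjusted p under 0.05 or by *DESeq2*, and 1 fell without M/Z replicate 2. At stage 9 the endoderm sum was 52.5% and 62.3% of the mean of +/Z pools, and 3 of the 14 fell and 0 rose, again with 0 higher by either measure. The sum of 12 mesoderm entries was 91.1% and 67.5% of the mean of +/Z pools at stage 10.5 and 63.1% and 69.5% at stage 9. Of the 12, 2 fell and 1 rose at stage 10.5, and 3 fell and 1 rose at stage 9. By an unadjusted p under 0.05, 8 were lower and 1 higher at stage 9, and *DESeq2* called 5 lower and 1 higher. The calls of the mesoderm entries that fell at stage 10.5 depended on M/Z replicate 2. The part that these markers or the position of M/Z replicate 2 played in the levels of *chrd.L*, *nog* and *admp* was not tested.

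**Figure D3:**
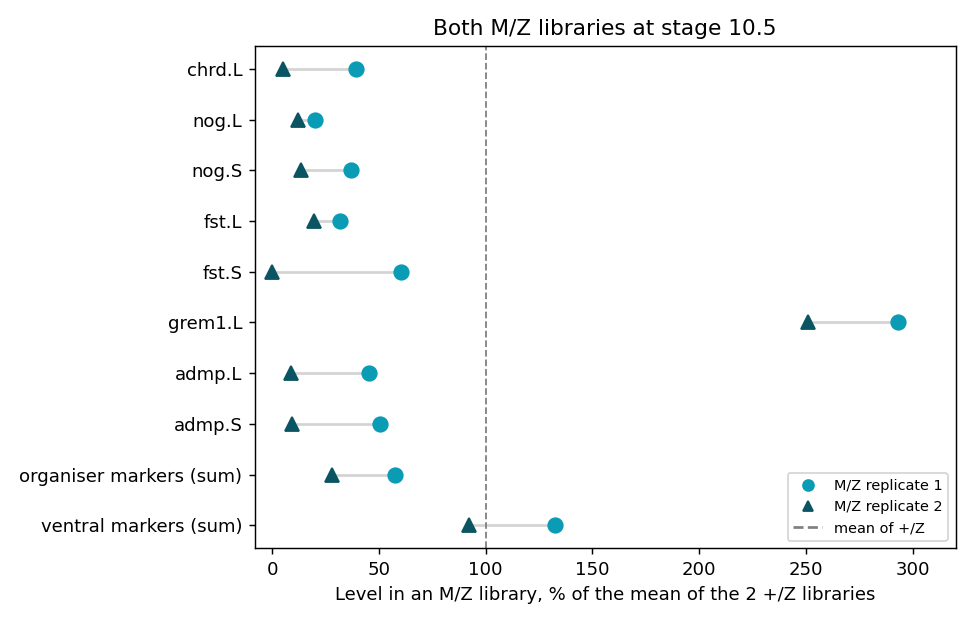
Level of each gene in the 2 M/Z libraries at stage 10.5 as a percentage of the mean of the 2 +/Z libraries (dashed line, 100%), with the summed organiser and ventral marker entries below. Circles are M/Z replicate 1 and triangles M/Z replicate 2, and *chrd.L* and both copies of *admp* show the wide gap between the pools, 39.3% and 5.31% for *chrd.L*, while *nog.L* shows a narrow one.

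The change with stage, stage 10.5 over stage 9, was then read within each genotype. In M/Z pools 2 of the 8 passed, both higher at stage 10.5 (*chrd.L* and *admp.S*), where 32.3% of all genes tested passed, 16.7% higher and 15.6% lower. In +/Z pools 5 of the 8 passed, 4 higher (*chrd.L*, *nog.L*, *fst.L* and *admp.S*) and 1 lower (*grem1.L*), where 46.5% of all genes passed, 23.3% higher and 23.2% lower. Under library totals the share of calls that were higher was 37.5% in place of 51.6% in M/Z pools and 34.4% in place of 50.1% in +/Z pools. By replicates, 2 of the 8 had both stage 10.5 libraries above both stage 9 libraries and 1 had both below in M/Z pools, where 36.2% and 35.2% of all genes did. In +/Z pools these were 7 and 1 of the 8, where 37.1% and 37.2% of all genes did.

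*chrd.L* showed the largest rise of the 8 in both genotypes. Its log2 fold change was 3.64 ± 0.74 in M/Z pools (adjusted p = 0.0056) and 4.62 ± 0.76 in +/Z pools (adjusted p = 0.0011). *admp.S* rose by 2.52 ± 0.58 in M/Z pools and by 2.66 ± 0.58 in +/Z pools (adjusted p = 0.0099 and 0.0044). In M/Z pools *admp.S* lost its call without M/Z stage 9 replicate 1 or 2 (adjusted p = 0.072 and 0.052), and its value was 0.86 without M/Z stage 10.5 replicate 1 and 3.26 without M/Z stage 10.5 replicate 2. There *chrd.L* kept its call in each case, at 1.57 without M/Z stage 10.5 replicate 1 and 4.46 without M/Z stage 10.5 replicate 2.

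*nog.L* had a different course. Stage 10.5 and stage 9 differed by a log2 fold change of 0.11 ± 0.44 in M/Z pools (adjusted p = 0.88), against 1.79 ± 0.42 in +/Z pools, where it rose (3.46-fold, adjusted p = 0.0070). The call in +/Z pools was lost without +/Z stage 9 replicate 2 (log2 fold change 1.40, adjusted p = 0.068). *nog.L* stayed between 1.07 and 1.88 CPM in all 4 mutant pools. The test of the difference itself, the genotype effect at stage 10.5 minus that at stage 9, gave -1.69 ± 0.61 for *nog.L* (95% confidence interval -3.04 to -0.33), with an unadjusted p of 0.020 and an adjusted p of 0.38. Of the 8 members 0 passed this test with *edgeR* or *DESeq2*, where 0.0472% of all genes passed with *edgeR*. *nog.L* was the 1 member with an unadjusted p under 0.05, which 2845 of all 25447 genes tested also had. A larger genotype effect at stage 10.5 was therefore not established for any member.

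Without M/Z replicate 1 at stage 10.5, *chrd.L*, *admp.L* and *admp.S* did pass the test of the difference (-3.04, -2.34 and -1.80, adjusted p = 0.012, 0.012 and 0.018). Without M/Z replicate 2 at stage 10.5 the same 3 values were -0.15, 0.040 and 0.61 and none of them passed. For these genes the comparison of the stages therefore depended on which mutant pool was kept.

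*fst.L* rose in +/Z pools by 2.03 ± 0.59 (adjusted p = 0.018), and its log2 fold change in M/Z pools was 0.72 ± 0.61 (adjusted p = 0.40). The call was lost without +/Z stage 9 replicate 1 or 2 or +/Z stage 10.5 replicate 1 (adjusted p between 0.060 and 0.12). *nog.S* passed in neither genotype (log2 fold change -0.16 ± 0.49 in M/Z pools and 0.68 ± 0.46 in +/Z pools). *admp.L* had a log2 fold change of 0.68 ± 0.55 in M/Z pools and 1.39 ± 0.55 in +/Z pools (adjusted p = 0.37 and 0.060). Its value in M/Z pools turned with the pool, at 1.42 without M/Z replicate 2 of stage 10.5 and -0.95 without M/Z replicate 1 of stage 10.5, both of which passed (adjusted p = 0.00098 and 0.033). *grem1.L* was the member that fell with stage, by 0.75 ± 0.23 on the log2 scale in +/Z pools (adjusted p = 0.021), and its log2 fold change in M/Z pools was -0.37 ± 0.22 (adjusted p = 0.21). The call in +/Z pools was lost without +/Z stage 9 replicate 1 or 2 or +/Z stage 10.5 replicate 1 (adjusted p between 0.077 and 0.093).

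The share of the homeologs differed between the stages for *admp*. The share of *admp* counts on *admp.L* was 27.1% and 27.5% in M/Z pools and 31.9% and 26.7% in +/Z pools at stage 10.5. At stage 9 it was 58.7% and 55.6% in M/Z pools and 53.2% and 46.9% in +/Z pools. All 4 libraries of stage 10.5 were below all 4 of stage 9, in both genotypes, and the exact binomial 95% intervals of the stages did not meet (the highest bound at stage 10.5 was 33.4% and the lowest at stage 9 was 43.7%). The M/Z pools at stage 10.5 differed over 5-fold in *admp* and had nearly the same share. At stage 9 the M/Z pools, which had less *admp* than the +/Z pools, had the higher shares. Whether the share followed the level was not tested. *RSEM*, which estimated the counts, divides reads that match both copies, and the intervals cover counting error only.

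For *nog* the share on *nog.L* was 61.3% and 72.5% in M/Z pools and 72.0% and 76.4% in +/Z pools at stage 10.5. It was 54.2% and 66.0% in M/Z pools and 63.2% and 49.0% in +/Z pools at stage 9. The ranges of the genotypes overlapped at stage 9 and at stage 10.5. *fst* counts were mostly on *fst.L*, between 58.5% and 100% in a library, from 7 to 97 counts in all, so that no order of the groups could be read.

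**Figure D4:**
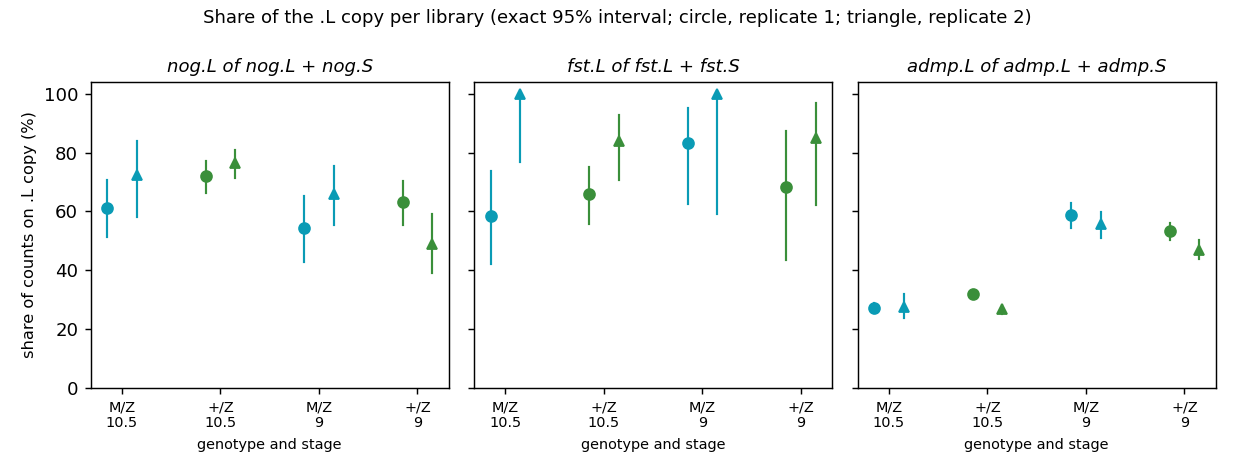
Share of the counts of *nog*, *fst* and *admp* on the .L copy in each library (percent), with exact 95% binomial intervals, M/Z left of +/Z and stage 10.5 left of stage 9. In the *admp* panel the 4 libraries of stage 10.5 lie between 26.7% and 31.9% and the 4 of stage 9 between 46.9% and 58.7%.

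Across the 8 libraries, the level of *grem1.L* ran opposite to that of every other tested member (Pearson's r of log2 CPM between -0.88 and -0.70). The highest values within the set were 0.97 for *admp.S* with *chrd.L* and 0.95 for *admp.L* with *nog.S*. These are descriptions over libraries that share genotype and stage. The genes with the most similar pattern in all tested genes with a mean log2 CPM of at least 1 included *crx.S* for *chrd.L* (r = 0.995), *foxd4l1.1.L* for *admp.L* (0.989), *cox17.L* for *admp.S* (0.989), *tsg101.S* for *nog.L* (0.991), *gpatch3.L* for *nog.S* (0.977), *slc9a3.L* for *fst.L* (0.982), *plscr3.L* for *fst.S* (0.955) and *boc.S* for *grem1.L* (0.996). The third gene for *admp.L* was LOC108716939, the chordin entry named *chrd.1.L* by RefSeq (0.978).

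The other genes of the pathway are read against all genes tested, of which 6.68% rose and 6.39% fell at stage 10.5, and 6.01% rose and 5.92% fell at stage 9. When M/Z replicate 2 of stage 10.5 was left out, 3% rose and 2.67% fell at stage 10.5. Of the 12 tested entries of BMP ligands other than Admp, 1 rose and 1 fell at stage 10.5 (0 and 0 without M/Z replicate 2), and 0 passed at stage 9, where 5 had an unadjusted p under 0.05 and *DESeq2* called 2. In the fit that omits this pool, 2 rose and 1 fell at stage 9. The summed level of all 15 listed entries, which include untested ones and *gdf3.S*, was 1165 and 845 CPM in M/Z pools at stage 10.5. In +/Z pools the sum was 1480 and 1599 CPM, without overlap. At stage 9 it was 318 and 312 CPM in M/Z pools, against 289.6 and 289.8 CPM in +/Z pools. *bmp7.2.S*, which encodes a BMP ligand, had 13.9 and 22.0 CPM in M/Z pools at stage 10.5, against 6.58 and 8.90 CPM in +/Z pools. It rose by 1.22 ± 0.28 on the log2 scale (adjusted p = 0.020), a call that was lost without M/Z replicate 2 of stage 10.5 (0.86, adjusted p = 0.094). *bmp2.L*, another BMP ligand, and *gdf3.S*, a ligand of the wider TGF-beta family, passed when averaged over both stages, at 0.67 ± 0.22 and -0.60 ± 0.15 on the log2 scale (adjusted p = 0.048 and 0.016), and without that pool they were 0.39 and -0.50 (adjusted p = 0.12 and 0.042).

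Other secreted or membrane modulators of the pathway went both ways. Of 22 tested entries, 5 rose and 4 fell at stage 10.5 (4 and 3 without M/Z replicate 2), and 1 rose and 2 fell at stage 9. *szl*, for sizzled, which inhibits the proteases that cut chordin, had 117 and 101 CPM in M/Z pools at stage 10.5, against 42.0 and 55.0 CPM in +/Z pools. It rose by 1.17 ± 0.21 on the log2 scale (adjusted p = 0.0068), and without M/Z replicate 2 by 1.28 (adjusted p = 0.011). *nodal3.2.L*, a nodal-related gene of the organiser, had 3.06 and 1.33 CPM in M/Z pools at stage 10.5, against 9.30 and 16.5 CPM in +/Z pools. It fell by 2.55 ± 0.42 on the log2 scale at stage 10.5 and by 1.41 ± 0.39 at stage 9 (adjusted p = 0.0048 and 0.045). *fstl5.S*, another follistatin-like gene, was below the floor of 3 counts in M/Z pools, with 0 and 2 counts at stage 10.5, against 33 and 30 counts in +/Z pools. At stage 9 its counts were 2 and 0 in M/Z pools, against 95 and 65 in +/Z pools, and it passed at both stages (adjusted p = 0.0060 and 0.0014).

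Among 27 tested receptor and Smad entries, 1 rose and 0 fell at stage 10.5 (0 and 0 without M/Z replicate 2), and 2 rose and 0 fell at stage 9 (3 and 0 without that pool). *DESeq2* called 3 and 4 of them higher and 0 lower, and with *edgeR* 0 and 4 were lower at an unadjusted p under 0.05. The entries that passed at either stage, *smurf1.L* and *smad6.S*, are known to restrain the signal. *smurf1.L*, a ubiquitin ligase for Smads, rose by 0.70 ± 0.17 at stage 10.5 and by 0.82 ± 0.17 at stage 9 on the log2 scale (adjusted p = 0.026 and 0.012), and its call at stage 10.5 was lost without M/Z replicate 2 (0.52, adjusted p = 0.13). *smad6.S*, an inhibitory Smad, rose at stage 9 by 0.82 ± 0.18 (adjusted p = 0.016), and its log2 fold change was 0.39 ± 0.18 at stage 10.5 (adjusted p = 0.17). *smad7.S*, another inhibitory Smad, rose when averaged over both stages, by 0.73 ± 0.16 (adjusted p = 0.0092).

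Transcription factors listed as BMP targets showed no common direction at stage 10.5. Of 28 tested entries, 2 rose and 1 fell at stage 10.5 (2 and 0 without M/Z replicate 2), and 0 rose and 5 fell at stage 9 (0 and 9 without that pool). At stage 9, 0 were higher at an unadjusted p under 0.05 and *DESeq2* called 0 higher and 7 lower. *id2.L*, which encodes an inhibitor of DNA binding, had 119 and 133 CPM in M/Z pools at stage 10.5, against 63.0 and 62.3 CPM in +/Z pools. It rose by 1.01 ± 0.15 on the log2 scale (adjusted p = 0.0028), and without M/Z replicate 2 by 0.94 (adjusted p = 0.011). *evx1.L*, a homeobox gene of ventral and posterior mesoderm, had 3 and 10 counts in M/Z pools at stage 9, against 66 and 53 counts in +/Z pools, and fell there (adjusted p = 0.0089). *sp5.S*, which is also known as a Wnt target, had 4 and 1 counts in M/Z pools at stage 10.5, against 22 and 27 counts in +/Z pools, and passed at both stages (adjusted p = 0.030 at stage 10.5 and 0.027 at stage 9). Its call at stage 10.5 was lost without M/Z replicate 2 (log2 fold change -3.10, adjusted p = 0.17).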

How the data were processed

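RNA from pools of 3 whole embryos was sequenced in 8 libraries. Paired-end reads were aligned by the authors to genome version 9.2 of *X. laevis* using *bowtie2*, and they deposited *RSEM* expected counts per gene (version 1.3.0 in the submitters' processing notes), as whole numbers without normalisation. The annotation and strand setting are not given in the sources used here. A row that names no gene, 0.0545% to 0.150% of a library, was left out. The counts were fitted in *edgeR* 4.0.16 under R 4.3.3 (TMM, filterByExpr, 1 quasi-likelihood fit of the 4 groups, Benjamini-Hochberg over 25447 genes, threshold 0.05). SE and 95% intervals are those of that fit. *DESeq2* 1.42.0 and the settings named in the closing section were alternatives, and the tests were checked on simulated counts. The members and lists were chosen with earlier results of these data known. Every member was named, with, per member, the 3 genes of highest correlation (the first is given) and, per pathway list, the 3 smallest p over both stages. Of the 9 members, 8 matched the RefSeq gene table (version 10.1) by symbol. No sequences or coordinates were used.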

Additional observations from a re-analysis of the deposited data

How the results depend on the processing

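No genotype difference of a tested member changed direction at either stage or averaged over both, under any setting that was run. Of the 133 alternative values for the 8 tested members at stage 9, 116 kept their side of the threshold, 4 lost and 13 gained a call. Of 134 at stage 10.5, 113 kept their side, 7 lost and 14 gained a call, and of 126 averaged over both stages the figures were 114, 8 and 4. These tallies include fits with a library left out. They also include summed homeologs, where the value of the pair was entered for each copy. Members passing at stage 10.5 numbered 3, against 7 without a filter on low counts, 5 with *DESeq2* and 2 to 6 when each library was left out. At stage 9 the count was 1, against 4 without the filter, 5 in the 4 libraries of that stage alone and 0 to 4 with a library left out. Averaged over both stages it was 6 (3 to 8), for the difference between stages 0 (0 to 3), for stage in M/Z pools 2 (1 to 3) and for stage in +/Z pools 5 (2 to 6). The cause of these shifts was not tested, and with a lone library in a group its spread is assumed to equal that of the other groups. Calls gained without the filter are no further support, given the smaller standard errors of *chrd.L* and *admp* described above.

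Over all genes, 3325 passed at stage 10.5, against 5494 without the filter and 1220 in the 4 libraries alone (1520 to 5228 with a library left out). At stage 9, 3037 passed, against 1894 with at least 10 counts in every library and 7127 in the 4 libraries alone (1076 to 3750). Averaged, 6109 passed (3416 to 7434). For the difference 12 passed, against 915 without the filter, 6 with at least 10 counts and 304 with *DESeq2* (0 to 732). For stage, 8219 passed in M/Z pools (3332 to 9259) and 11833 in +/Z pools (7624 to 12400).

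The replicate numbers showed no clear pairing of the samples, with correlations of same-numbered deviations between -0.13 and 0.17 over the pairs of groups. With 2 libraries in each group and the females not named, these values cannot decide whether same-numbered pools shared a female. With the replicate block, 5 members passed at stage 10.5, among them *chrd.L* (log2 fold change -2.57, adjusted p = 0.025) and *admp.L* (-2.07, adjusted p = 0.030). Because the pairing could not be decided, calls gained with this block are no further support.

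Directions turned in 2 comparisons. For the difference between stages, leaving out a library gave -2.34 to 0.040 for *admp.L*, -1.80 to 0.61 for *admp.S* and -6.10 to 3.55 for *fst.S*, and the positive values of *admp* came without M/Z stage 10.5 replicate 2. For stage in M/Z pools, leaving out libraries gave ranges of -0.95 to 1.42 for *admp.L*, -3.74 to 5.90 for *fst.S*, -0.30 to 0.48 for *nog.L*, -1.07 to 0.38 for *nog.S*, -0.47 to 3.98 for *chrd.2.L* and -2.45 to 2.39 for LOC108716939. For *nog.L* there, library totals gave -0.11, and the summed homeologs of *nog* gave -5.3e-05. With 0 to 33 counts in a library, *fst.S* and *fstl1.L* allow no firm comparison at this depth.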
